A study of Mus musculus with 31 samples.

Results

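The genes described are 8 genes of salivary gland secretion, Smr3a, Pip, Dcpp1, Dcpp2, Dcpp3, Cst10, Bpifa2e and Aqp5, followed in bulk RNA-seq libraries of masseter muscle (MM), a jaw-closing muscle. They are 8 of the 22609 genes counted. They were selected on the measured spread of their read counts between these same mice, so their levels are given here as a description, with no test of a difference between groups. The libraries came from 31 adult male C57BL/6J mice, 1 library per mouse, in 9 groups that carry the names of their labels. In the complete Freund's adjuvant (CFA) experiment, an adjuvant that produces inflammation, the groups were CFA_1d and CFA_5d (3 mice each, 1 and 5 days after injection) and the vehicle group CFA_control (3 mice). In the collagenase type 2 (Col) experiment, an enzyme that digests collagen, the groups were C_1C and C_RPC (4 mice each, 0.2U), 2d_post_col (4 mice, 10U), MM_Co_6d (3 mice, 10U), 12d_post_col (4 mice, 10U) and the vehicle group Contr (3 mice). All mice were wild type and received an injection into MM, PBS in the vehicle groups. The labels give no day for C_1C, C_RPC and the vehicle groups, and the study's methods give other days for 2d_post_col and 12d_post_col than the labels do, so the label names are kept. The labels describe the tissue as all muscle cells of the dissected MM.

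Saliva is made by acini, clusters of epithelial cells that store proteins in granules and release them, with water, into ducts. Serous acini, the main cell type of the parotid, make watery saliva rich in enzymes such as amylase, and mucous acini of the sublingual gland make mucins. The parotid lies beside MM on the cheek. Bpifa2e, named Bpifa2 by RefSeq, encodes parotid secretory protein. Smr3a encodes a short submaxillary gland androgen-regulated peptide precursor, Pip the prolactin-induced protein of salivary and lacrimal fluid, Cst10 a cystatin (an inhibitor of cysteine proteases), and Dcpp1, Dcpp2 and Dcpp3 the demilune cell and parotid proteins. Aqp5 is not a secreted protein but the water channel in the apical membrane of secretory cells.

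The files held 14843778 to 29076671 reads on genes (median 20834472). Levels are given as CPM, reads scaled for library size, with TMM factors, and the abundance of different genes is compared only as RPKM, which also divides by exon length. Reads of a gene per read of another are set side by side between libraries and do not rank the genes. A list of 10 striated muscle genes, which includes Acta1, Ckm and Myh4, took 3.50% to 14.9% of the reads in the 31 libraries. Identical counts were found in 0 of 465 pairs. In 4 libraries the proportions among the 8 genes stood apart. C_1C mouse 1, 2d_post_col mouse 3 and 12d_post_col mouse 2 had more Pip than Bpifa2e reads, and C_1C mouse 4 had more Aqp5 than Pip reads. Correlations with the 8 genes and the ratios of Pip and Aqp5 reads are also given without these libraries. In bulk tissue a larger number of secretory cells and more RNA per cell cannot be told apart.

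The sequence just before the start site is shown for the 8 genes because their levels went together across libraries. Each line gives the 60 bases before the start annotated by RefSeq (build GRCm38.p6, plus strand), 5′ to 3′, and capitals mark the letters TATAA or their reverse complement.
Bpifa2e: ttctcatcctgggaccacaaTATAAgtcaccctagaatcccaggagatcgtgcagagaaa
Smr3a: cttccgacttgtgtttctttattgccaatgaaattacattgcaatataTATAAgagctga
Pip: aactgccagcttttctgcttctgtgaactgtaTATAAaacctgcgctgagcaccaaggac
Cst10: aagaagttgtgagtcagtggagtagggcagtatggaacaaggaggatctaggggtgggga
Dcpp1: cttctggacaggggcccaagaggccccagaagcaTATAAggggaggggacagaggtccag
Dcpp2: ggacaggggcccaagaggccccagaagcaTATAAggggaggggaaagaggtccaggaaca
Dcpp3: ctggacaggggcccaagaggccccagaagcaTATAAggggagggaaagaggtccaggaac
Aqp5: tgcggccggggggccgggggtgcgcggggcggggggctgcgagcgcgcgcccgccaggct
In this build the 60 bases lie at chr2:154008216-154008275 for Bpifa2e, chr5:88002465-88002524 for Smr3a, chr6:41847489-41847548 for Pip, chr2:149405189-149405248 for Cst10 and chr15:99590968-99591027 for Aqp5. Those of Dcpp1, Dcpp2 and Dcpp3 lie at chr17:23880816-23880875, chr17:23898662-23898721 and chr17:23917398-23917457. The letters TATAA, searched on both strands, stood in this window of 6 of the 8 genes and of 7.24% of the 32851 promoters in the same table. Cst10 and Aqp5 do not hold these letters here. The promoters of the 3 Dcpp genes were 97.1% to 98% identical over the aligned part of the 250 bases before the start, so their matches are not independent. In Smr3a the letters began 12 bases before the start. The matches describe the sequence only.

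The 8 genes together took from 0.000219% to 33.5% of the reads counted on genes in a library, with a median of 0.955%. They passed 1% in 15 libraries and stayed under 0.1% in another 15, so that a single library, C_1C mouse 1 at 0.955%, lay between. Bpifa2e made up 61.1% and Smr3a 32.4% of all reads on the 8 genes. All 3 CFA_5d mice (18.8% to 25.8%) and all 4 C_RPC mice (4.82% to 33.5%) were above 1%, and no MM_Co_6d or 12d_post_col mouse was. The other groups were mixed. In CFA_control, 1 of 3 mice passed 1% (2.77%, against 0.00535% in the lowest), in Contr 2 of 3 (21.3% and 7.43%, against 0.00689%), in CFA_1d 1 of 3, in C_1C 1 of 4 and in 2d_post_col 3 of 4. Vehicle mice of both experiments were thus found at high and at low levels.

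**Figure D1:**
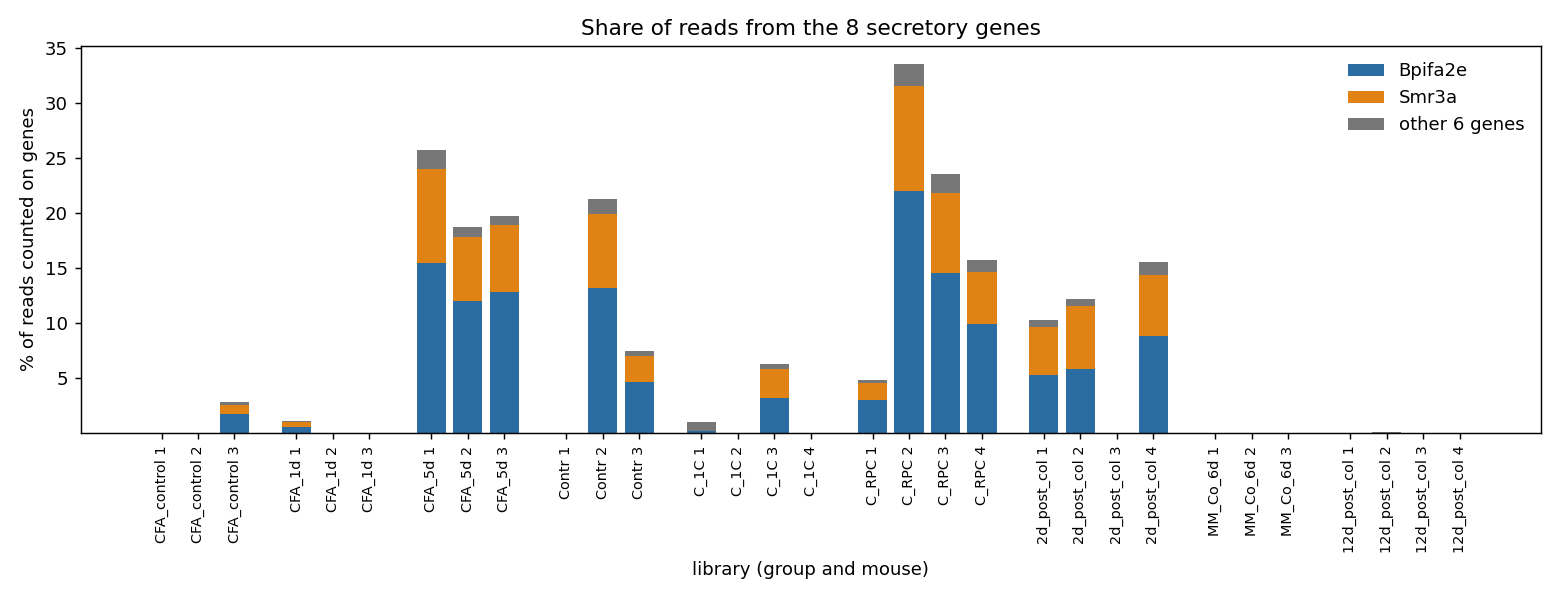
Bars give the percent of reads counted on genes that fell on Bpifa2e (blue), Smr3a (orange) and the other 6 genes (grey) in each of the 31 libraries, ordered by group and mouse. The 3 CFA_5d and 4 C_RPC libraries are all high, whereas Contr, CFA_control, CFA_1d, C_1C and 2d_post_col hold high and low libraries and the bars of MM_Co_6d and 12d_post_col are too low to see.

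Among the 15526 genes that reached 10 counts in 3 or more libraries, Dcpp1, Cst10, Smr3a, Pip and Bpifa2e held ranks 1 to 5 by the SD of log2 CPM over the 31 libraries, as the choice of the genes requires. Dcpp3 was at rank 20, Dcpp2 at rank 22 and Aqp5 at rank 62. Their SDs ran from 6.23 for Dcpp1 to 4.23 for Aqp5 on the log2 scale, where the median gene had 0.51. Of the 14 other genes among the 20 most spread, Car6, Abpa and Lpo belong to the list of acinar products described below. Per length, the highest levels reached 222336 RPKM for Smr3a, 170169 for Bpifa2e, 25324 for Pip, 16651 for Dcpp1, 7229 for Cst10, 2051 for Dcpp3, 521 for Dcpp2 and 116 for Aqp5. The RPKM of Bpifa2e rests on an exon length of 2009 bp summed over all annotated exons, and a shorter transcript would raise it.

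Bpifa2e (mm9 chr2:153834001-153841815, plus strand) was the most abundant of the 8 genes by reads. Its levels in CFA_control mice 1, 2 and 3 were 39.2, 107 and 15422 CPM, and in CFA_1d they were 5507, 33.0 and 79.0 CPM. In CFA_5d they were 193373, 166535 and 165272 CPM. CFA_5d mice were therefore all above every CFA_control mouse, while CFA_1d and CFA_control overlapped, each with a single high mouse. In Contr the 3 mice gave 47.8, 185025 and 44789.6 CPM, and the highest was 3868-fold above the lowest. In C_1C Bpifa2e was at 1397, 119, 27249 and 83.5 CPM, and in C_RPC at 28561, 341870, 207733 and 111263 CPM. The ranges of both 0.2U groups overlapped that of Contr. After 10U, 2d_post_col mice stood at 44744, 50342, 11.4 and 91544.5 CPM, with mouse 3 alone at the low end. In MM_Co_6d Bpifa2e was at 1.54, 0.847 and 4.47 CPM and in 12d_post_col at 149, 19.98, 49.9 and 8.06 CPM. All MM_Co_6d mice were below the mice of every other group.

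Smr3a (mm9 chr5:88431550-88437559, plus strand) followed Bpifa2e mouse by mouse. In the CFA experiment it stood at 20.9, 41.2 and 7090.3 CPM in CFA_control, at 4971, 16.8 and 42.9 CPM in CFA_1d and at 106463, 79776.5 and 78352 CPM in CFA_5d. The high mice were those in which Bpifa2e was high. In Contr it was at 22.6, 93542 and 22628 CPM, in C_1C at 641, 61.2, 22455.5 and 40.4 CPM and in C_RPC at 14678, 147409, 103998 and 52351 CPM. After 10U it was at 37752, 48927, 8.12 and 56659 CPM in 2d_post_col, at 0.471, 0.508 and 2.00 CPM in MM_Co_6d and at 152, 11.8, 25.1 and 5.39 CPM in 12d_post_col. Between the lowest and the highest of the 31 mice, Smr3a differed 313134-fold. Without TMM scaling the highest value, that of C_RPC mouse 2, was 95005 CPM.

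The 9 groups were ordered by the median level of each gene. For Smr3a the medians fell from CFA_5d (79776.5 CPM) over C_RPC (78174.5), 2d_post_col (43339), Contr (22628), C_1C (351), CFA_1d (42.9), CFA_control (41.2) and 12d_post_col (18.4) to MM_Co_6d (0.508). Of the 8 pairs of neighbours in that order, 1 pair, 12d_post_col and MM_Co_6d, did not overlap in range. CFA_5d or C_RPC had the highest median for all 8 genes. MM_Co_6d had the lowest for Smr3a, Pip, Dcpp1, Cst10 and Bpifa2e, with 12d_post_col lowest for Dcpp3 and CFA_control for Aqp5. For Dcpp2 the medians of MM_Co_6d, 12d_post_col and CFA_control were all 0 CPM. Among neighbours, 1 pair was apart for Pip, Dcpp1, Bpifa2e and Aqp5 each, 2 pairs for Cst10 and 0 for Dcpp2 and Dcpp3. On the log2 CPM scale the SD between mice of a group was 0.13 for Bpifa2e in CFA_5d (mean 17.41, n = 3), against 6.37 in Contr (mean 12.84, n = 3) and 6.18 in 2d_post_col (mean 12.77, n = 4).

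**Figure D2:**
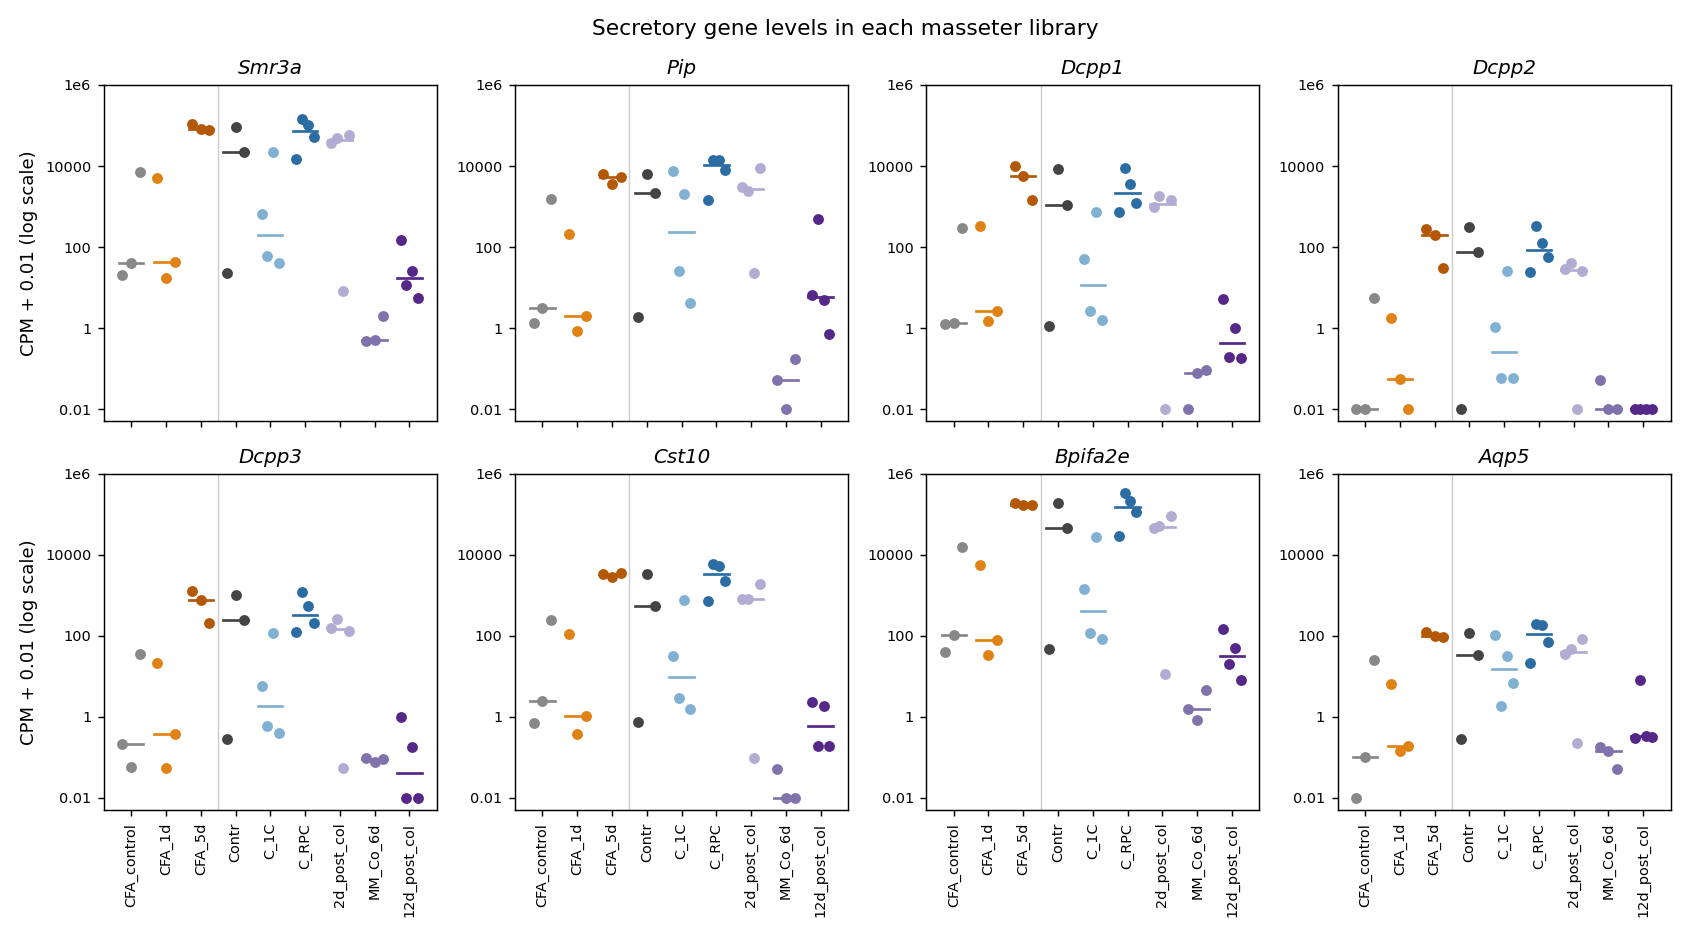
Each panel plots the CPM of 1 gene plus 0.01 on a log scale for every mouse (points) and the median of each group (line), with the CFA experiment left of the grey line and the Col experiment right of it. CFA_5d and C_RPC points sit together at the top for Smr3a and Bpifa2e, MM_Co_6d points at the bottom, and single mice of Contr, CFA_control, CFA_1d and 2d_post_col lie far from the others of their group.

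Because the rule used these same mice, the separation of groups is set beside that of all genes and nothing is read from it. In CFA_5d against CFA_control all 8 genes were higher without overlap, as were 12% of the 14026 genes tested. Dcpp2, Dcpp3 and Aqp5 reached 10 counts in CFA_control only in mouse 3, and so passed the count minimum through CFA_5d, where they were high. In MM_Co_6d against Contr, 5 of the 8 genes reached 10 counts in 3 or more of the 6 libraries, and these 5 (Smr3a, Pip, Dcpp1, Cst10 and Bpifa2e) were lower without overlap, as were 21.9% of 14281 genes. Pip, Dcpp1 and Cst10 passed the count minimum through the Contr libraries alone, while Smr3a and Bpifa2e reached it in all 3 MM_Co_6d libraries too. Dcpp2, Dcpp3 and Aqp5 did not reach it there. In the 6 other comparisons of the design the ranges of each of the 8 genes overlapped. There, genes that were higher without overlap made up 3.46% of all genes in CFA_1d against CFA_control, 4.35% in C_1C, 4.21% in C_RPC, 10.7% in 2d_post_col and 8.55% in 12d_post_col against Contr and 2.55% in CFA_control against Contr. Those that were lower made up 2.76%, 5.41%, 8.02%, 13.2%, 8.51% and 2.52% in the same order. The 5 comparisons of Col groups and the vehicle comparison share the Contr mice, and CFA_1d and CFA_5d share the CFA_control mice.

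Pip (mm9 chr6:41797548-41802061, plus strand) set 3 of these libraries apart. In most libraries it had far fewer reads than Bpifa2e, with a median of 0.0487 Pip reads per Bpifa2e read over the 28 libraries with at least 10 counts of both. In C_1C mouse 1 the ratio was 5.25, in 2d_post_col mouse 3 it was 1.99 and in 12d_post_col mouse 2 it was 24.8. The next highest ratio was 0.215, in C_1C mouse 2, and the median without the 3 libraries was 0.0486 (25 libraries). By contrast, Bpifa2e per Smr3a read stayed between 0.977 and 3.27 in all 31 libraries, with a median of 1.96, and Cst10 per Bpifa2e read between 0.0124 and 0.0366 in 24 libraries. Pip was at 7331 CPM in C_1C mouse 1, rank 5 of the 31 libraries, where Smr3a and Bpifa2e had rank 16. It was at 22.8 CPM in 2d_post_col mouse 3 and at 495 CPM in 12d_post_col mouse 2. In the other groups Pip went with Bpifa2e, at 6395, 3685 and 5288 CPM in CFA_5d, at 1465, 14459.9, 14307 and 8168 CPM in C_RPC, and at 0.0428, 0 and 0.167 CPM in MM_Co_6d.

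**Figure D3:**
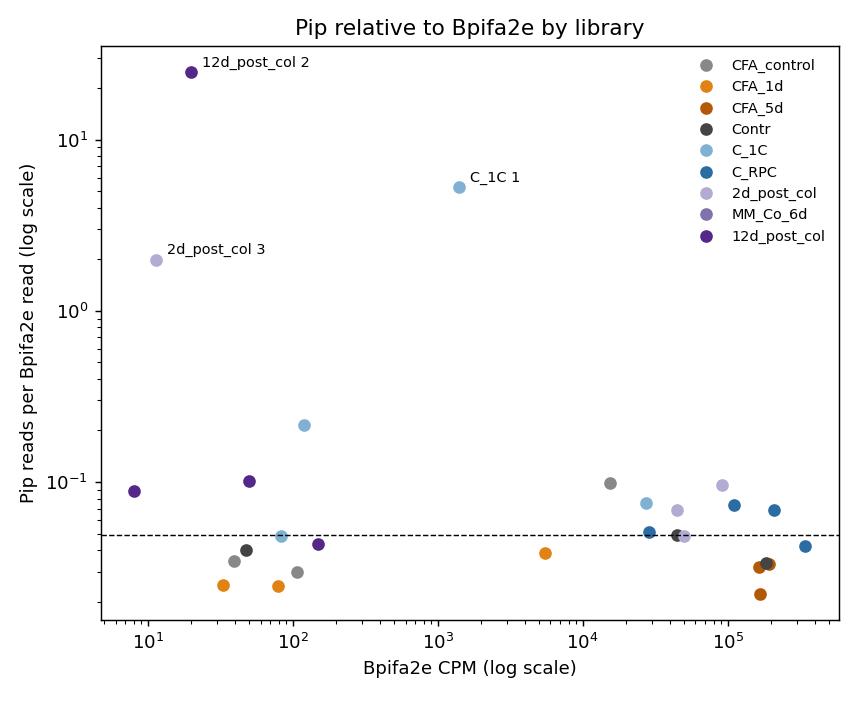
Each point is a library with at least 10 counts of both genes, placed by its Bpifa2e CPM (log scale) and its Pip reads per Bpifa2e read (log scale), coloured by group. The dashed line is the median of 0.0487, and the 3 named libraries lie above 1 at low or middle Bpifa2e levels.

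Aqp5 (mm9 chr15:99421280-99425260, plus strand) went with Pip in these 3 libraries. It reached 104 CPM in C_1C mouse 1, within the range of CFA_5d (94.6 to 123 CPM), and 8.15 CPM in 12d_post_col mouse 2, where the other 3 mice of the group had 0.289 to 0.332 CPM. In 2d_post_col mouse 3 it was at 0.222 CPM, with 5 counts. Per Pip read, Aqp5 had 0.0142, 0.00973 and 0.0165 reads in C_1C mouse 1, 2d_post_col mouse 3 and 12d_post_col mouse 2, beside a median of 0.0162 over the 19 libraries with at least 10 counts of both. Per Bpifa2e read it had 0.0746, 0.0194 and 0.408, beside a median of 0.000876, or 0.000768 without the 4 libraries set apart. C_1C mouse 4 departed in another way, with 143 Aqp5, 85 Pip and 1749 Bpifa2e counts. Its 1.68 Aqp5 reads per Pip read were the highest ratio, the next being 0.0744 in C_1C mouse 2, while its Pip per Bpifa2e ratio of 0.0486 lay at the median. The peroxidase of saliva and tears, Lpo, was at 2789 CPM in C_1C mouse 1, the highest of all 31 libraries, and Lpo reads per Pip read stayed between 0.0633 and 0.380 in 21 libraries. Sval2, a gene 927 bp from Pip, was also highest in C_1C mouse 1, at 1415 CPM.

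The 3 Dcpp genes lie side by side on chromosome 17 (mm9 chr17:24017843-24019820 for Dcpp1, chr17:24017848-24037754 for Dcpp2 and chr17:24054425-24056408 for Dcpp3, all plus strand). In the vM1 annotation the Dcpp2 model also covers Dcpp1. Their coding sequences were 93.7% to 95.9% identical, and 47% of the 50-base windows of Dcpp1, 36.9% of those of Dcpp2 and 33.6% of those of Dcpp3 occurred in transcripts of another Dcpp gene. For the other 5 genes this share was 0. Reads that align to more than 1 place were left uncounted, so the levels of the 3 Dcpp genes are uncertain among themselves. The 60 coding bases of exon 3 in which the 3 genes differ most are shown, 5′ to 3′, with capitals at the 15 positions that differ.
Dcpp1: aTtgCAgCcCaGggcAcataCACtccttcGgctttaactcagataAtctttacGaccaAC
Dcpp2: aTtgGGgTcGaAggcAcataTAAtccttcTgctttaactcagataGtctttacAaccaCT
Dcpp3: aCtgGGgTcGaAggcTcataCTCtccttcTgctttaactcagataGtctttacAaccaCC
These stretches lie at chr17:24019519-24019578, chr17:24037454-24037513 and chr17:24056107-24056166 of mm9. Dcpp1 was at 10274, 5730.4 and 1428 CPM in CFA_5d and at 1.27, 1.36 and 303 CPM in CFA_control. In Contr it was at 1.14, 8379.7 and 1113 CPM, and in C_RPC at 737, 8981, 3699.7 and 1209 CPM. It was thus high in the same mice as Bpifa2e, but within CFA_5d it spread more widely. Dcpp3 had a median of 0.146 reads per Dcpp1 read over 18 libraries (0.0631 to 0.226) and Dcpp2 a median of 0.0317 over 16 libraries (0.00528 to 0.0662). Dcpp2 had 0 counts in 11 libraries, among them all 4 of 12d_post_col.

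Cst10 (mm9 chr2:149230793-149236029, plus strand) stood at 3419, 2744 and 3546 CPM in CFA_5d, at 714, 6036, 5246 and 2247 CPM in C_RPC and at 0.728, 3271 and 556 CPM in Contr. In MM_Co_6d it had 1 count in mouse 1 and 0 in mice 2 and 3. It followed Bpifa2e more closely than Pip or Aqp5 did. In C_1C mouse 1, 2d_post_col mouse 3 and 12d_post_col mouse 2 it was at 32.4, 0.0887 and 0.181 CPM. The values in 2d_post_col mouse 3 and 12d_post_col mouse 2 rest on 2 and 3 counts. Across the 31 libraries the Spearman correlations of the 28 pairs among the 8 genes ran from 0.835 (Pip and Dcpp3) to 0.997 (Smr3a and Bpifa2e), with a median of 0.92. Without the 3 libraries with more Pip than Bpifa2e reads they ran from 0.911 to 0.996, with a median of 0.943, and without C_1C mouse 4 as well from 0.905 to 0.996, with a median of 0.947. All points share the same libraries and scaling, so these values are a description.

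A list of 23 further acinar secretory products came from general knowledge of salivary glands, with earlier results of these data known. Of these, 16 had enough counts to be compared with the 8 genes. Beside 0.606% of the 15518 other genes, 9 of the 16 had a Spearman correlation over 0.90 with the mean log2 CPM of the 8 genes. They were Car6, the carbonic anhydrase secreted into saliva (0.99), Dnase1 (0.96), Amy1, the salivary amylase (0.96), Wfdc12, Abpa, Prol1, Prpmp5, Pigr and Lpo. Without the 3 libraries with more Pip than Bpifa2e reads, 10 of the 16 passed this value, beside 1.04% of other genes. Without all 4 libraries set apart, 9 of 16 did, beside 1.21%. The 8 genes were selected on their spread in the same libraries, so these shares are a description. Amy1 went from 10.2 CPM in the lowest to 117310 CPM in the highest library, and Car6 from 0.171 to 26177 CPM. Amy1 kept a level when the 8 genes were low. In MM_Co_6d there were 6.99 to 14.8 Amy1 reads per Bpifa2e read, and in CFA_5d 0.217 to 0.387. Its model shares 33.5% of its 50-base windows with other genes, mainly the overlapping Rnpc3.

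Other products of the list had few or no counts. Smr2, Sval1 and Ccl28 were listed at 0 in all 31 libraries, as were 3332 of the 22609 genes in the files, and Smgc and Muc19, products of mucous and neonatal submandibular cells, stayed at or below 0.0525 and 0.188 CPM. Of a list of 19 granular duct products of the submandibular gland, Ren1, renin, and Klk1b26 were listed at 0 too, while Klk1 and Crisp1 had correlations of 0.94 and 0.95 with the 8 genes. A list of 8 digestive enzymes of the pancreatic acinus summed to 0.123 to 4.54 CPM. The summed level of the 10 muscle genes had a correlation of 0.06 with the 8 genes, that of 10 skin genes 0.35 and that of 6 sebaceous genes 0.57. For the pancreatic list it was -0.03, for white fat 0.41, brown fat 0.20, bone -0.41, cartilage -0.03, lymphoid tissue 0.07, goblet cells 0.31 and blood 0.17. The haemoglobin genes Hba-a1, Hba-a2, Hbb-b1 and Hbb-b2 were also listed at 0 in all 31 libraries, so the blood value rests on the remaining gene of 5, and a gene listed at 0 throughout is not read as unexpressed. Without the 4 libraries set apart the values were 0.01 for muscle, 0.36 for skin, 0.70 for sebaceous genes, -0.04 for the pancreatic list, 0.45 for white fat, 0.21 for brown fat, -0.38 for bone, -0.04 for cartilage, 0.09 for lymphoid tissue, 0.41 for goblet cells and 0.22 for blood.

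The proline-rich proteins, which bind tannins in parotid saliva, divided the libraries that were high for the 8 genes. Prh1 was at 1293, 941 and 1110 CPM in 2d_post_col mice 1, 2 and 4, at 470 CPM in C_RPC mouse 1, at 347 CPM in CFA_1d mouse 1, at 273 CPM in CFA_5d mouse 3 and at 226 CPM in C_1C mouse 3. In other libraries with as much Bpifa2e it was close to 0. It was at 0.149, 2.98 and 4.67 CPM in C_RPC mice 2, 3 and 4, at 0.977 and 0.104 CPM in CFA_5d mice 1 and 2, and at 0 and 1.63 CPM in Contr mice 2 and 3. Prp2, which shares 21% of its 50-base windows with Prh1, was above 25 CPM in those 7 libraries and in no other. Prb1 and Prpmp5 were detected in the high libraries of either kind, at 68.3 to 304 CPM and 215 to 378 CPM in CFA_5d.

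**Figure D4:**
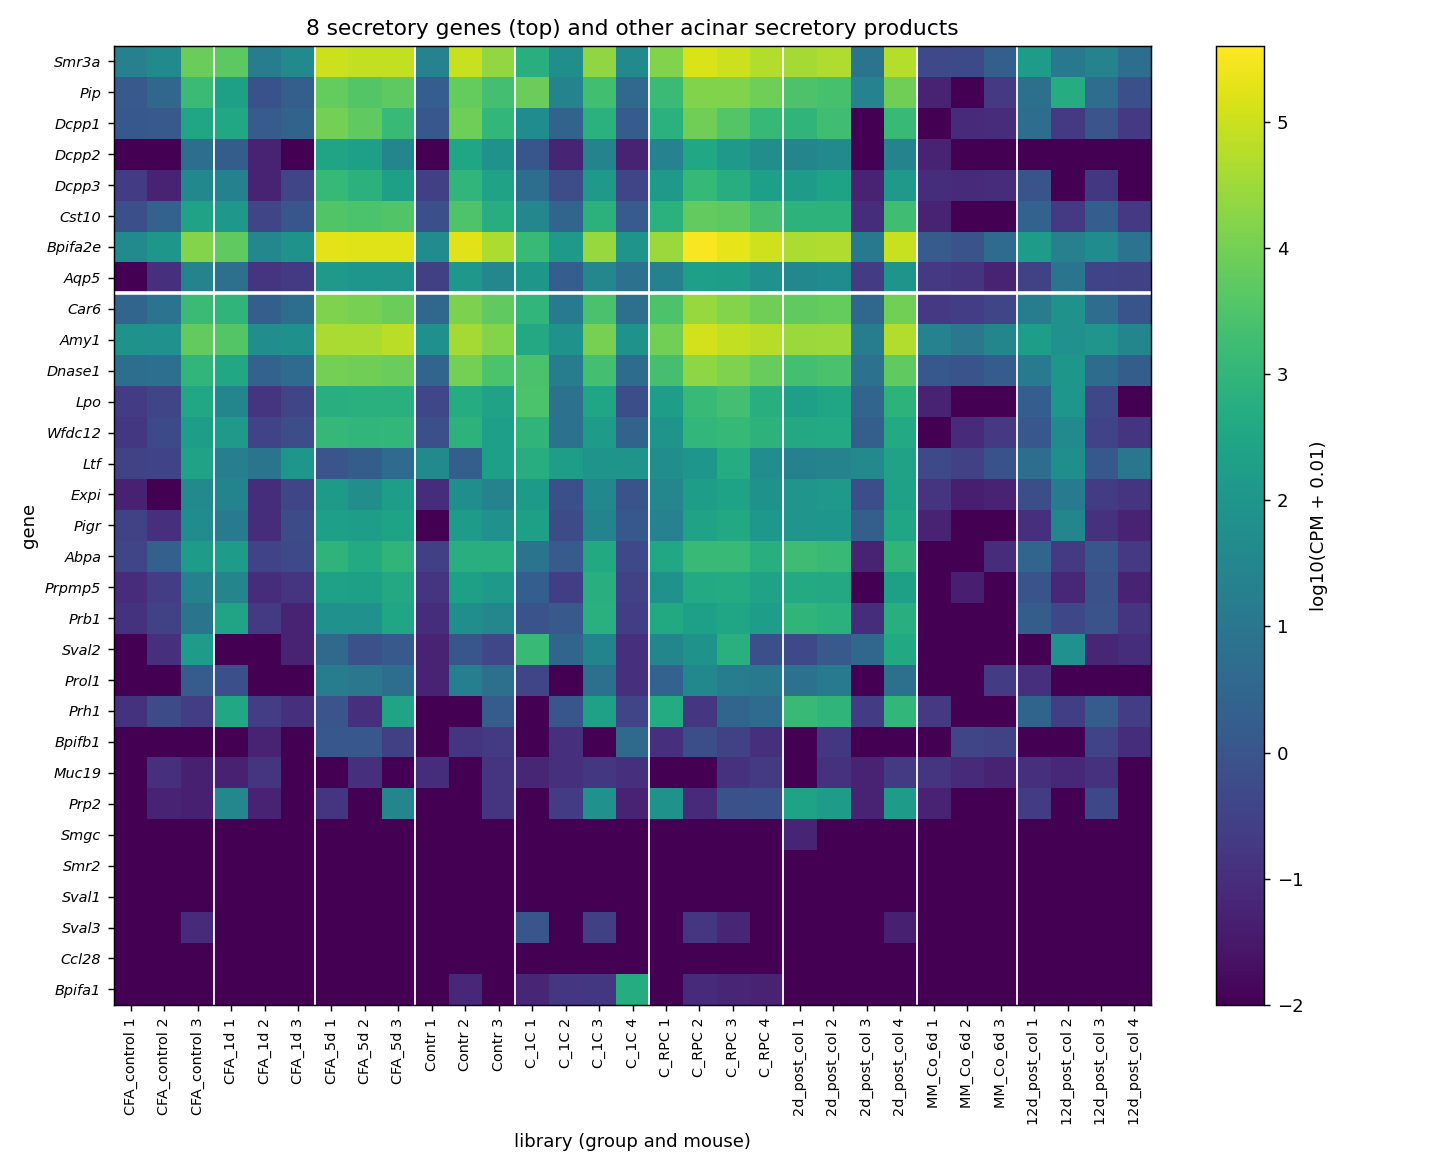
Colour gives the log10 of CPM plus 0.01 for the 8 genes (above the thick white line) and the 23 other acinar secretory products (below it, by median level) in each library, with thin lines between groups. Car6, Amy1 and Dnase1 repeat the pattern of the 8 genes, Prh1 and Prp2 are high in 7 of the libraries only, and the rows of Smr2, Sval1 and Ccl28 are at 0.

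The genes most like the 8 genes were named by a rule, the 20 highest Spearman correlations with their mean log2 CPM over the 31 libraries. They were Car6, Gm17495, Chia, 2900093L17Rik, 2310057J18Rik, Cldn22, Apol10a, Dnase1, Amy1, Elf5, Tmprss2, Csn3, Cldn3, Crisp1, Rab17, Tesc, Ppp1r1b, Ankrd56, Wfdc12 and Amy2b, with values from 0.99 to 0.95. Chia, an acidic chitinase, reached 37877 CPM. Elf5 and Cldn3 belong to a list of 16 genes of acinar secretion and its epithelium. Of these 16, 12 had a correlation over 0.80, against 2.11% of other genes, and 13, against 2.83%, without the 4 libraries set apart. That list too was chosen with earlier results known, so the shares are a description. Of the 20 genes, 14 stayed among the 20 most alike without the 3 libraries with more Pip than Bpifa2e reads. Without all 4 libraries set apart, 15 stayed. Among the genes within 200 kb of the 8 genes, Odam and Csn3 beside Smr3a (0.95 and 0.96) and Bpifa6 and Bpifb4 beside Bpifa2e (0.92 and 0.91) had values over 0.80. None of the 10 neighbours of Dcpp1 with enough counts had, and none of 12 beside Aqp5.

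The list of acinar secretory products outside the 8 genes was tested in each comparison with edgeR's quasi-likelihood test over all genes, with calls at an adjusted p under 0.05, a fold over 2 and a mean RPKM over 1. In CFA_5d against CFA_control, 14 of the 23 genes passed the count minimum, 12 were higher and 2 lower, and 0 were called, where 0.863% of all genes were called up. The median of the 14 log2 fold changes was 4.22, beside -0.02 over all genes, and 6 had an unadjusted p under 0.05. Lpo, Prb1 and Prpmp5 reached the count minimum in CFA_control only in mouse 3, and so passed it through CFA_5d, where they were high. The number of higher genes, the median and the number of low p-values therefore give no support by themselves. Amy1 reached the minimum in every CFA_control mouse. Amy1, at 82.0, 68.8 and 5992 CPM in CFA_control and 41982, 41897 and 64025 CPM in CFA_5d, had a log2 fold change of 4.601 (SE 1.75, edgeR adjusted p = 0.29). DESeq2 called 2, Amy1 and Prb1, where it called 3.29% of all genes up. The call of Prb1 carries the limit given above. CFA_control mouse 3 was the high mouse of its group, and without it edgeR called 12 of 14 up, where it called 6.46% of all genes up. Each mouse was left out in turn, and this mouse is named because it was also the high one for the 8 genes. The rise to 12 is therefore a description and gives no support.

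In the same comparison, edgeR called 2 of 15 tested genes of the acinar secretion list and 2 of 8 of the granular duct list, all up, and DESeq2 called 7 and 4. Of 6 tested genes of the skin list edgeR also called 2 up, the keratins Krt5 and Krt17, and DESeq2 called 3, with a median log2 fold change of 1.47 over the 6. The summed level of the skin list was 50.7 to 64.0 CPM in CFA_5d and 30.9 to 73.7 CPM in CFA_control, and its part in the result was not tested. Ano1, the chloride channel that drives fluid secretion, was at 95.3, 82.5 and 93.5 CPM in CFA_5d and 15.1, 18.3 and 29.3 CPM in CFA_control, without overlap (log2 fold change 2.17, SE 0.28, edgeR adjusted p = 0.035). Cldn4, a tight junction protein, had a log2 fold change of 2.77 (SE 0.39, edgeR adjusted p = 0.040), and Crisp3 one of 3.24 (SE 0.22, edgeR adjusted p = 0.011). The fourth, Klk1b5, belongs to a family of closely similar kallikreins, so its counts are uncertain, and had 1, 2 and 3 counts in CFA_control and 59, 38 and 16 in CFA_5d. It passed the count minimum through CFA_5d alone. Genes that followed the 8 genes in the 25 libraries outside the comparison (correlation over 0.80) made up 53 of the 121 genes called up, or 43.8%, beside 1.90% of all genes tested. Such genes could pass the count minimum through CFA_5d alone, and the 8 genes were selected on the libraries of all groups. This share is therefore a description. The 121 calls fell to between 0 and 20 when CFA_control mouse 1 or 2 or any CFA_5d mouse was left out, and rose to 893 without CFA_control mouse 3. With plain library totals in place of TMM scaling, edgeR called 0 genes up.

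In MM_Co_6d against Contr, 5 of the 23 genes passed the count minimum, and all 5 (Amy1, Car6, Dnase1, Wfdc12 and Ltf) were called down, where 7.1% of all genes were. Car6 and Wfdc12 passed the minimum through the Contr libraries alone, Ltf reached it in 2 of 3 MM_Co_6d libraries, and Amy1 and Dnase1 reached it in all 3, so the count holds genes that could pass only by being high in Contr and gives no support by itself. Amy1 was at 22.9, 10.2 and 31.2 CPM in MM_Co_6d and 64.8, 37996 and 15619.8 CPM in Contr (log2 fold change -9.71, SE 2.09, edgeR adjusted p = 0.017). Ltf, lactoferrin, was at 0.471, 0.305 and 0.793 CPM against 42.5, 1.96 and 191 CPM, and did not follow the 8 genes within Contr. Without Contr mice 1, 2 or 3 in turn 3 genes were called of 3 that passed, and without MM_Co_6d mice 1, 2 or 3 in turn 0, 0 and 1 of 5. The 10 muscle genes summed to 30900 to 57434 CPM in MM_Co_6d and 101035 to 141856 CPM in Contr, and 3 of the 10 were called down. Of other lists, 5 of 9 tested skin genes, 4 of 8 bone genes, 2 of 6 white fat genes, 1 of 5 brown fat genes, 1 of 4 cartilage genes and the single blood gene tested were called down too, with a median log2 fold change of -2.09 for skin, -2.48 for bone and -1.63 for white fat. The summed skin list was at 43.1 to 77.7 CPM in MM_Co_6d and 81.8 to 189 CPM in Contr. The part of these lists in the result was not tested. In the same comparison 7 of 11 tested genes of the acinar secretion list (Ano1, Cldn10, Cldn3, Ehf, Epcam, Fxyd3 and Kcnn4) and 3 of 5 of the granular duct list (Crisp1, Klk1 and Egf) were called down. Of 1009 genes called down outside the 8 genes, 79, or 7.83%, followed the 8 genes in the other libraries, beside 1.49% of all genes tested. Such genes could pass the count minimum through Contr alone, so this share too is a description.

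No gene of the list was called by edgeR in the other 6 comparisons. A gene could pass the count minimum through 1 group alone there too, so the numbers of higher and lower genes give no support by themselves. In CFA_1d against CFA_control, where 0% of all genes were called, all 7 tested genes were lower with a median log2 fold change of -0.78, 0 had an unadjusted p under 0.05 and DESeq2 called 0, where it called 0.38% of all genes. In C_1C against Contr (0% of all genes called) 7 were higher and 7 lower, 1 had an unadjusted p under 0.05 and DESeq2 called 0, where it called 2.1% of all genes. In C_RPC against Contr (0% of all genes called) all 15 were higher with a median of 1.55, 4 had an unadjusted p under 0.05 and DESeq2 called Sval2 up, where it called 0.764% of all genes up. In 2d_post_col against Contr, where edgeR called 0.96% of all genes up and DESeq2 6.99%, the median of 15 genes was 0.78, 3 had an unadjusted p under 0.05 and DESeq2 called Prh1 and Prp2. In 12d_post_col against Contr, where edgeR called 0.324% of all genes down and DESeq2 1.32%, 11 of 12 were lower with a median of -5.09 and 6 had an unadjusted p under 0.05. DESeq2 called 6 down, and edgeR 4 without Contr mouse 1, where it called 0.779% of all genes down. In CFA_control against Contr (0.0355% of all genes called down), 11 of 12 were lower with a median of -3.02, 0 had an unadjusted p under 0.05 and DESeq2 called 0, where it called 0.249% of all genes.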

How the data were processed

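The authors isolated poly(A) RNA from dissected MM, made stranded libraries, sequenced them and, per the submitters' processing notes, used bcl2fastq, TopHat2 and HTSeq with build mm9; versions are not given in the sources used here. They deposited 1 table of raw counts per library, the number of reads assigned to each gene symbol, not normalized or filtered. Closing lines without a gene were left out of library sizes. Reads on no gene were 6.69% to 22.5% and ambiguous reads 0.125% to 0.703% of the uniquely aligned reads. Ambiguous reads were 0.559% to 0.703% in every library of the 10U groups and 0.125% to 0.259% in every other library, Contr included. In comparisons of the 10U groups with Contr, this difference cannot be told apart from the treatment. Its part in the results was not tested.

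TMM factors (0.644 to 1.40) were computed with edgeR 4.0.16 in R 4.3.3 over 15526 genes that reached 10 counts in 3 or more libraries. Correlations used log2 CPM with 0.5 counts added. Each comparison was fitted with edgeR's quasi-likelihood test on its own libraries, with group as the factor, the same count minimum and Benjamini-Hochberg adjustment; DESeq2 1.42.0 was an alternative. On simulated counts for CFA_5d against CFA_control (13879 genes), 94% of genes changed 4-fold were recovered, and 10 unchanged genes were called. The changed genes were drawn at random. The share recovered therefore does not apply to the acinar products, which spread far more between CFA_control mice. Gene models came from GENCODE vM1 (mm9), with 21627 symbols matched directly and 52 by a synonym; 930 symbols without a model got the median exon length. Counting error is 31.6% of a count of 10. The p-values set a difference between groups against the spread between these mice only, estimated with information shared across genes.

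The members and lists were chosen with earlier results of these data known. Named genes are the 8 genes, the lists, the 20 most alike genes and annotated genes within 200 kb. Bpifa2 of the list is the same gene as Bpifa2e and was dropped; Scgb2b27 had no row in the files. The labels do not pair the mice. Deviations from the group means were correlated between mice of the same replicate number. These correlations were all positive only in CFA_1d against CFA_control (0.12, 0.25 and 0.45) and CFA_control against Contr (0.20, 0.11 and 0.62). Whether mice of the same number share anything is not given by the labels and was not tested.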

Additional observations from a re-analysis of the deposited data

Results flagged for a closer look

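Mouse 3 of 2d_post_col lay far below the other 3 mice of its group for 7 of the 8 genes. Its levels were 8.12 CPM for Smr3a (37752 to 56659 CPM in the others), 11.4 CPM for Bpifa2e (44744 to 91544.5), 0.0887 CPM for Cst10 (813 to 1860.45), 0 CPM for Dcpp1 (953 to 1801), 0 CPM for Dcpp2 (25.8 to 39.7), 0.0444 CPM for Dcpp3 (134 to 261) and 0.222 CPM for Aqp5 (34.7 to 84.0). Pip, at 22.8 CPM, was also the lowest of its group but its gap to the others was under Dixon's critical value. Mouse 2 of 12d_post_col was above the other 3 mice for Aqp5, at 8.15 CPM against 0.289 to 0.332 CPM. Of 32 sets of 1 gene in 1 group of 4 mice, 8 had a gap over that value. Chance gives about 1 in 20 for genes not chosen by their values, but these genes were selected on their spread between the same mice, so the gaps are a description and not a test. The 8 genes also move together, so the 7 values of 2d_post_col mouse 3 are not independent.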

How the results depend on the processing

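For the 8 genes, the 72 group means of log2 CPM moved past the spread between mice in 5 of 392 alternative values; all 5 came from plain library totals, 4 of them in CFA_5d, where the spread is small. The median SD of log2 CPM over the 8 genes was 6.09, 5.92 with plain totals and 6.10 with DESeq2 size factors, and 5.79 to 6.19 with any library left out. Counts of called acinar products outside the 8 genes came out within 1.5 times the reported count under 52 of 64 other settings. DESeq2 called 2 rather than 0 in CFA_5d, 1 in C_RPC, 2 in 2d_post_col and 6 in 12d_post_col. A fit shared by 31 libraries gave 2 in 2d_post_col and 1 in 12d_post_col, and pooled vehicle groups 2 in 2d_post_col and 10 rather than 5 in MM_Co_6d; without a count filter MM_Co_6d had 12. With the replicate number as a block, CFA_5d had 1, 2d_post_col 1 and MM_Co_6d 3. It changed no other count, also where the correlations between mice of the same number were all positive (0 and 0). Leaving out each mouse gave 0 to 12 in CFA_5d, 0 to 1 in 2d_post_col, 0 to 3 in MM_Co_6d, 0 to 4 in 12d_post_col and 0 in the other 4 comparisons. The cause of these shifts was not tested. Genes with a correlation over 0.90 numbered 94, and 101 by Pearson. They numbered 162 without the 3 libraries with more Pip than Bpifa2e reads and 187 without these and C_1C mouse 4. These alternatives were added after seeing the data.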

Other observations

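In the 3 libraries with more Pip than Bpifa2e reads, some other secretory genes had a higher rank among the 31 libraries than Bpifa2e had. They were chosen after their values were seen. Obp1a, an odorant-binding protein, was at 51062 CPM in C_1C mouse 1, rank 1 of 31, at 3633 CPM in 12d_post_col mouse 2, rank 6, and at 96.0 CPM in 2d_post_col mouse 3, rank 10, where Bpifa2e had ranks 16, 26 and 27. Abpe, of the androgen-binding protein family, was at 28230, 2235 and 38.9 CPM, and Mup4, a major urinary protein, at 8284, 663 and 24.7 CPM in the same libraries. In the other 28 libraries Obp1a was at 0 to 27468 CPM, Abpe at 0 to 15222 CPM and Mup4 at 0 to 4880.5 CPM.

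Bpifa1, an airway and nasal relative of Bpifa2e that lies 126801 bp away from it, was at 498 CPM in C_1C mouse 4 and at 0 to 0.156 CPM in the other 30 libraries, while Bpifa2e stood at 83.5 CPM in that mouse.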
